A study of Rattus norvegicus with 10 samples.

Results

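The genes described here encode the apolipoproteins, the protein coats of plasma lipoproteins, and the plasma enzymes that act on those particles, in rat liver after a burn injury. They were Apoa1, Apoa2, Apoa4, Apob, Apoc1, Apoc3, Apoe, Apoh, Lipc and Lcat. Every probe set (a group of short probes that together read 1 transcript) whose only gene symbol in the probe table of the array was 1 of these names was taken, whatever its value. This gave 19 probe sets of 8799, for 10 genes of 4737. Total RNA of rat liver was hybridised to 10 expression arrays, 2 for each of 5 groups. The groups were sham rats, labelled 0 h, and rats 1 h, 4 h, 8 h and 24 h after the burn. The sources used here give no strain, sex, age or burn size. They also leave unsaid whether paired arrays were separate rats or pools, so a p-value measures only how far these arrays differ, which may be technical.

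Lipoproteins carry cholesterol, triglyceride and phospholipid through the blood, and the liver makes most of their proteins. Apob is the backbone of very low density lipoprotein, with a single copy in each particle, and Apoa1 is the main protein of high density lipoprotein (HDL). The smaller apolipoproteins move between particles and tune the enzymes and receptors that handle them. Hepatic lipase, encoded by Lipc, hydrolyses triglyceride and phospholipid of remnant and HDL particles in the liver sinusoids, and Lcat esterifies the cholesterol of HDL in plasma. Synthesis of plasma proteins by the liver changes widely after injury, in what is called the acute phase response.

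A probe set was called changed when its Benjamini-Hochberg adjusted p was under 0.05 over the 5285 probe sets tested, in 1 limma model of all 5 groups. All 19 probe sets passed the filter on low values, and none of their values lay at or under the floor of 36.4 intensity units to which low values were raised. Changes are log2 differences with the standard error (SE) of that model, and the intervals are 95% intervals without adjustment. Arrays of 1 group correlated at 0.948 to 0.955, and arrays of different groups at 0.941 at most. Hepatocyte markers, 9 genes on 22 probe sets, summed to 464699 to 655439 intensity units over the 10 arrays. Intensity is no measure of transcript number between probe sets, so levels are compared within a probe set only. In tissue RNA, fewer cells of a type and less RNA per cell cannot be told apart.

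Hepatic lipase was called in 4 of the 8 comparisons. The promoters of the 2 plasma lipid enzymes are printed first, because Lipc fell at 8 h while no comparison called Lcat. Both are the 250 bases before the annotated start in RefSeq, assembly GRCr8, read 5′ to 3′ on the minus strand, Lipc from chr8:80516286-80516535 and Lcat from chr19:50748065-50748314. Capitals mark the motif of the liver factor HNF1 (the letters in the Lipc window, with any base allowed at position 7) and AGGTCA, the core to which nuclear receptors bind, each searched on both strands.
Lipc: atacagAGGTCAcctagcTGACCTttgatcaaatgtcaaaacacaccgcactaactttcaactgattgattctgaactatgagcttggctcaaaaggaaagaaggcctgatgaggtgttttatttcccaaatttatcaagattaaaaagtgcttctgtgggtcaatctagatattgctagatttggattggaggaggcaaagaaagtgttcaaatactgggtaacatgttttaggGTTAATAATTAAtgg
Lcat: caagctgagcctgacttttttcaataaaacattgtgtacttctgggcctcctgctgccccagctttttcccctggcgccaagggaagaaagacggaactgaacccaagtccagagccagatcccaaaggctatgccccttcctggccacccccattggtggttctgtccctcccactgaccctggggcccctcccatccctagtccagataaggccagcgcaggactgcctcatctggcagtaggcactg
The Lipc window held GTTAATAATTAA from 15 to 4 bases before the start. It held AGGTCA from 244 to 239 bases before the start, and the same letters on the other strand from 232 to 227 bases before it. Of all 33469 promoter windows of this length, 0.0448% held the HNF1 motif and 14.1% held AGGTCA. The Lcat window held neither. A match is a description of letters and shows no binding. Of the 10 genes, 6 had a window in the table, 9 windows in all. The other motifs searched were CAAAGTCCA (HNF4, in 0.338% of windows), TTGCNNAA (C/EBP, 9.22%), TTCNNNGAA (STAT, 7.67%) and TATAAA (12.9%). Among the genes described here, their 1 match was TTCCAAGAA in the Apoh window, 218 to 210 bases before the start. The motifs were chosen with these windows in view.

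Lipc read 2199.5 and 2442.9 intensity units on the sham arrays and 2903.2 and 2655.5 at 1 h. It read 2424.1 and 2151.7 at 4 h, 1065.6 and 843.3 at 8 h, and 1486.8 and 1699.7 at 24 h. The arrays of 8 h were the lowest of the 10, those of 24 h came next, and those of 1 h were the highest. Only the groups of 4 h and sham overlapped. Lipc fell by 1.29 on the log2 scale at 8 h against sham (SE 0.18, interval -1.72 to -0.86), which is 2.45-fold lower, with a limma adjusted p of 0.0185. Between 4 h and 8 h it fell by 1.27 (SE 0.18, adjusted p = 0.00793). From 8 h to 24 h it rose by 0.75 (SE 0.18, 1.68-fold, adjusted p = 0.0425). At 24 h it was 0.54 below sham on the log2 scale, with both arrays below both sham arrays, but the difference was not called (interval -0.97 to -0.11, adjusted p = 0.116). The F test over the 4 burn times called Lipc with an adjusted p of 0.00817, and this call held with each of the 10 arrays left out. The 8 h call was lost without sham array 1, sham array 2 or 8 h array 2, with adjusted p-values up to 0.09. The call between 4 h and 8 h was lost only without 4 h array 1 among the 10 arrays (0.0582), and the rise from 8 h to 24 h was lost without any 1 of the 10 arrays, with adjusted p-values up to 0.183.

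Lcat, the other enzyme, kept a narrow range. Its sham arrays read 7431.5 and 8199.5, its 8 h arrays 8590.9 and 7974.2, and its 24 h arrays 6592.8 and 6641.7. Both 24 h arrays lay below both sham arrays and the 8 h arrays overlapped sham. The changes against sham were 0.08 at 8 h (interval -0.28 to 0.45) and -0.24 at 24 h (interval -0.61 to 0.13), neither of them called. The highest group mean was 1.25-fold the lowest, against 2.91-fold for Lipc.

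**Figure D1:**
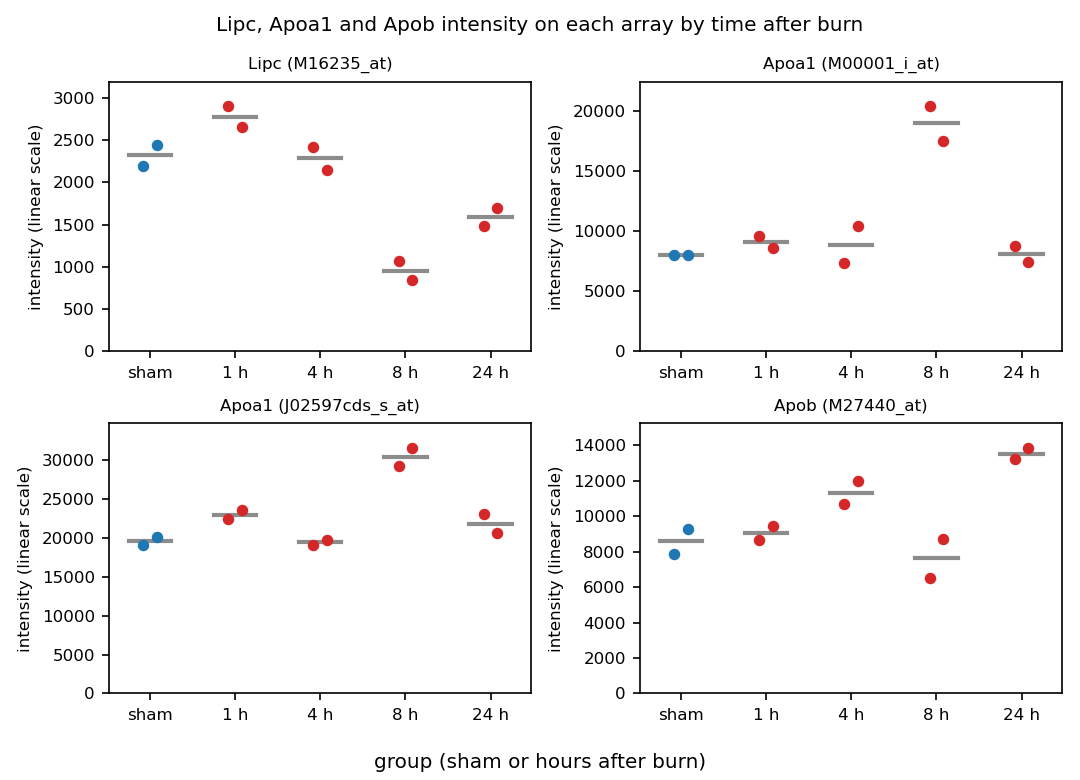
Intensity (linear axis from 0, in deposited units) on each array for the probe sets of Lipc, Apoa1 and Apob that were called in a comparison, by group. Points are arrays and grey bars group means, with 2 arrays each. Lipc is lowest at 8 h, at 843.3 and 1065.6, both Apoa1 probe sets are highest at 8 h, and Apob M27440_at is highest at 24 h, at 13215.4 and 13847.8.

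Apoa1, which forms the HDL shell and activates Lcat, rose at 8 h and was back near the sham level at 24 h. Its probe set M00001_i_at read 8046 and 8003.4 on the sham arrays, 9579.1 and 8613.6 at 1 h, and 7321.1 and 10463.8 at 4 h. At 8 h it read 20413.4 and 17541.6, and at 24 h it read 8781.9 and 7402.3. The 8 h arrays stood apart from all 8 others, which overlapped from group to group. The rise at 8 h against sham was 1.24 (SE 0.21, interval 0.73 to 1.74), 2.36-fold, with a limma adjusted p of 0.0328. It rose by 1.11 from 4 h to 8 h (adjusted p = 0.0242) and fell by 1.23 from 8 h to 24 h (adjusted p = 0.0132).

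The other Apoa1 probe set, J02597cds_s_at, had the same peak with a smaller size. It read 19053.1 and 20195.5 on the sham arrays, 22400.3 and 23590 at 1 h, and 19149.1 and 19768.4 at 4 h. It read 29300.1 and 31590.1 at 8 h, again above all 8 other arrays, and 23042.3 and 20674.7 at 24 h. This probe set had both 24 h arrays above both sham arrays, a change of 0.15 (interval -0.19 to 0.50) that was not called. Its change from 4 h to 8 h, 0.64 (SE 0.15), was called at an adjusted p of 0.0417. Its change at 8 h against sham, 0.63 (interval 0.29 to 0.98, 1.55-fold), was not (adjusted p = 0.0684), nor was that from 8 h to 24 h, -0.48 (adjusted p = 0.082). The suffixes _i_at and _s_at mark probe sets that do not follow the array's plain design, and how each reads Apoa1 was not tested.

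Brightness moved with the 8 h arrays. The 100 tested probe sets with the highest mean intensity, at least 14950 units, had a median change of 0.21 at 8 h against sham and 0.38 from 4 h to 8 h, against -0.10 and -0.07 over all 5285. This set was chosen after the values were seen, and it holds 7 of the 19 probe sets, J02597cds_s_at among them. After quantile normalization, which sets those medians near 0, the change of J02597cds_s_at from 4 h to 8 h was 0.38 (adjusted p = 0.175), so its call was lost and the value moved by more than 1.5 times. M00001_i_at kept its call at 8 h against sham after the same step (1.08, adjusted p = 0.0458), and Lipc kept its fall (-1.27, adjusted p = 0.018). From 8 h to 24 h quantile normalization gave 4 called members, against 3 without it. The M00001_i_at call at 8 h against sham held without either 4 h array and was lost without any 1 of the other 8 arrays, with adjusted p-values up to 0.133. From 4 h to 8 h it was lost without 4 h array 1 or either 8 h array (up to 0.106), and from 8 h to 24 h without 8 h array 1 or 24 h array 2 (up to 0.0782). The J02597cds_s_at call was lost without any 1 of the 10 arrays (up to 0.157).

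The remaining HDL apolipoproteins were not called in any comparison. Apoa2, the next most abundant HDL protein, read 19590.3 and 20742 on the sham arrays and 15307.4 and 14729.4 at 4 h, with both 4 h arrays below all 8 others. Its change at 4 h was -0.42 (SE 0.14, interval -0.77 to -0.08, adjusted p = 0.183). By 8 h it read 20219.7 and 18682.2, which overlapped sham. Apoa4, an apolipoprotein of chylomicrons and HDL that rodent liver makes beside the intestine, read 847.4 and 1008.2 on the sham arrays, 888.1 and 609.4 at 8 h and 1206.5 and 1231.5 at 24 h. The 24 h arrays were the highest of the 10. Its change from 8 h to 24 h was 0.73 (interval 0.21 to 1.24, adjusted p = 0.0767), and at 24 h against sham 0.40 (interval -0.11 to 0.91, adjusted p = 0.317). Apoa1, Apoc3 and Apoa4 lie next to each other on chromosome 8 in the GRCr8 annotation, followed by Apoa5. At 8 h Apoa1 was at its highest on both probe sets, while the Apoa4 mean and 2 of 3 Apoc3 means lay below sham without a call.

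Apob was read by 5 probe sets, which did not follow 1 course. M27440_at read 7881.6 and 9287.5 on the sham arrays, 10668 and 11981.3 at 4 h, 6529.6 and 8702.1 at 8 h, and 13215.4 and 13847.8 at 24 h. It rose from 8 h to 24 h by 0.84 (SE 0.19, interval 0.39 to 1.30), 1.79-fold, with a limma adjusted p of 0.0339. At 24 h against sham its change was 0.66 (interval 0.20 to 1.12, adjusted p = 0.0778), with both arrays of 24 h above both sham arrays. The call held without either sham array or 8 h array 2 and was lost without any 1 of the other 7 arrays, with adjusted p-values up to 0.142. The rise was 0.64 without 8 h array 1.

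The probe set rc_AA997806_at read 3097.4 and 2056.7 on the sham arrays, below all 8 burn arrays, which read 3796 to 5629.8. Its changes against sham were 0.60 at 1 h, 0.93 at 4 h (interval 0.35 to 1.51, adjusted p = 0.0955), 0.61 at 8 h and 0.85 at 24 h (interval 0.27 to 1.43, adjusted p = 0.0744). M14952mRNA_at had its sham arrays, at 657 and 467.4, above all 8 burn arrays, which read 225.6 to 407.2. Its change at 8 h was -1.04 (interval -1.63 to -0.44, adjusted p = 0.08). U53873cds_at read 2646.6 and 2330 on the sham arrays and 1830.7 and 2110.8 at 8 h. M21842_at read 207.1 and 210.9 on the sham arrays, and its arrays within 1 group differed as widely as 341.7 and 177.6 at 1 h. No comparison called any of these other 4 probe sets. Which part of the Apob transcript each probe set reads was not tested.

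**Figure D2:**
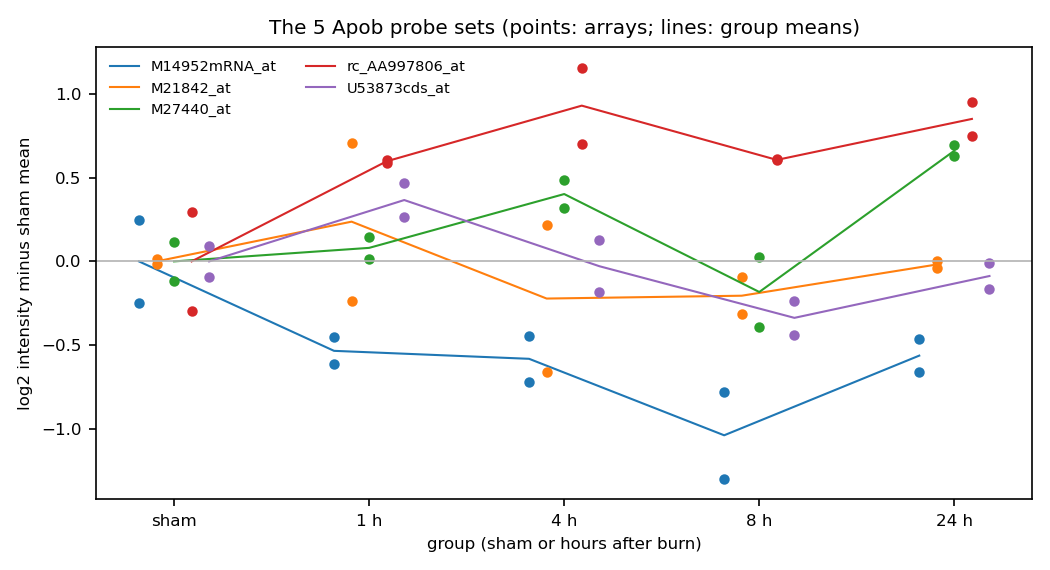
log2 intensity of the 5 Apob probe sets on each array, each minus its own mean over the sham arrays, by group. Points are arrays (2 per group) and lines join group means. rc_AA997806_at lies above sham at every burn time, M14952mRNA_at lies below it, and M27440_at reaches 0.66 at 24 h after falling back at 8 h.

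The exchangeable apolipoproteins of triglyceride-rich particles showed no called change. Apoc3, an inhibitor of triglyceride lipolysis and of remnant uptake, read 46196 and 52092.7 on the sham arrays of J02596cds_at. The same probe set read 34487.6 and 37499.4 at 8 h, both below sham, and 49234.1 and 53915.9 at 24 h. Its changes were -0.45 at 8 h against sham and 0.52 from 8 h to 24 h (interval 0.04 to 1.00, adjusted p = 0.155). Over the alternative settings the change at 8 h ran from -0.69 to -0.36. J02596cds_g_at read 18418.8 and 21125.1 at 8 h against 20775.6 and 24372.7 on the sham arrays, and rc_AI169758_at read 5291.9 and 5878.4 against 5750.1 and 4618.1. Both overlapped sham at 8 h.

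Apoc1, which inhibits lipase action and activates Lcat, read 31195.6 and 35076.7 on the sham arrays and 28194.8 and 28117.9 at 8 h, a change of -0.23 (interval -0.62 to 0.15). Apoe, the ligand through which the liver takes up remnant particles, read 62767 and 67782.6 on the sham arrays of S76779_s_at and 63505.5 and 64808 at 8 h. Its change at 8 h was -0.02 (interval -0.48 to 0.43). On X04979_at the sham arrays alone read 61809.4 and 87857.6, so their spread spanned all 8 h values, 73560.4 and 78755. The largest changes of Apoe against sham were -0.23 and -0.41 on the 2 probe sets, both at 4 h. Over the alternative settings they ran from -0.46 to 0.06 and from -0.67 to -0.06. From 4 h to 8 h the changes were 0.21 and 0.46, and they ran from -0.37 to 0.44 and from -0.18 to 0.72. The 87857.6 of sham array 2 is also the highest of all values on that array, and the highest values of the 10 arrays ran from 52669.2 to 97822.9.

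Apoh, also called beta-2 glycoprotein I, binds phospholipid and is an apolipoprotein by name more than by role. X15551cds_at read 11008.1 and 12300.6 on the sham arrays, 13620.4 and 12951.9 at 1 h, and 9882.3 and 10772.7 at 24 h. X15551cds_g_at read 14789.4 and 16098.2 on the sham arrays and 12701.3 and 13285 at 24 h. Both had their lowest mean at 24 h and their highest at 1 h. Changes against sham at 24 h were -0.17 (interval -0.57 to 0.23) and -0.25 (interval -0.59 to 0.09), without a call.

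Counted over the 19 probe sets, calls were few and fell at 8 h or on either side of it. At 1 h none was called, with 1.44% of all 5285 probe sets called. At 4 h none was called, against 4.35% of all. At 8 h 2 were called against 3.50% of all, Apoa1 M00001_i_at higher (1.55% of all were higher) and Lipc lower (1.95% were lower). At 24 h against sham none was called, against 10.3% of all. Between 1 h and 4 h none was called, against 5.0% of all. From 4 h to 8 h 3 were called against 8.29%, both Apoa1 probe sets higher (3.48% of all) and Lipc lower (4.81%). From 8 h to 24 h 3 were called against 11.8%, Apob M27440_at and Lipc higher (5.81%) and Apoa1 M00001_i_at lower (5.94%). The F test called 2, Lipc and Apoa1 M00001_i_at, against 15.3% of all. The F test call of Apoa1 M00001_i_at (adjusted p = 0.0272) was lost without any 1 of 8 arrays, with adjusted p-values up to 0.141, and held without either 4 h array. With an unadjusted p under 0.05, limma counted 1 of the 19 at 1 h, 2 at 4 h, 3 at 24 h and 1 between 1 h and 4 h, where none was called. Among all 5285 those counts were 636, 918, 1352 and 977.

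At 1 h and at 4 h 17 of 19 changes were under 0.5 log2 units in size, at 8 h 14 were and at 24 h 15 were. The share of all probe sets under that size was not counted, so these counts are a description only. At 4 h 16 of 19 changes were negative, with a median of -0.21 against -0.04 over all probe sets, and the 100 brightest probe sets had a median of -0.16. After quantile normalization the median of the brightest was -0.03. The share of all probe sets with a negative change was not counted, and several genes have more than 1 of the 19 probe sets, so this count too is a description only. Both 4 h arrays lay below both sham arrays for 6 of 19, where 26.0% of all probe sets did so, and above for 2 of 19, where 20.1% did. At 8 h the median of the 19 was -0.11 against -0.10 over all. Both 8 h arrays lay below both sham arrays for 7 of 19 (29.7% of all) and above for 3 of 19 (18.6% of all). The comparisons against sham share the sham arrays, and those between neighbouring times share the arrays of the time between them.

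**Figure D3:**
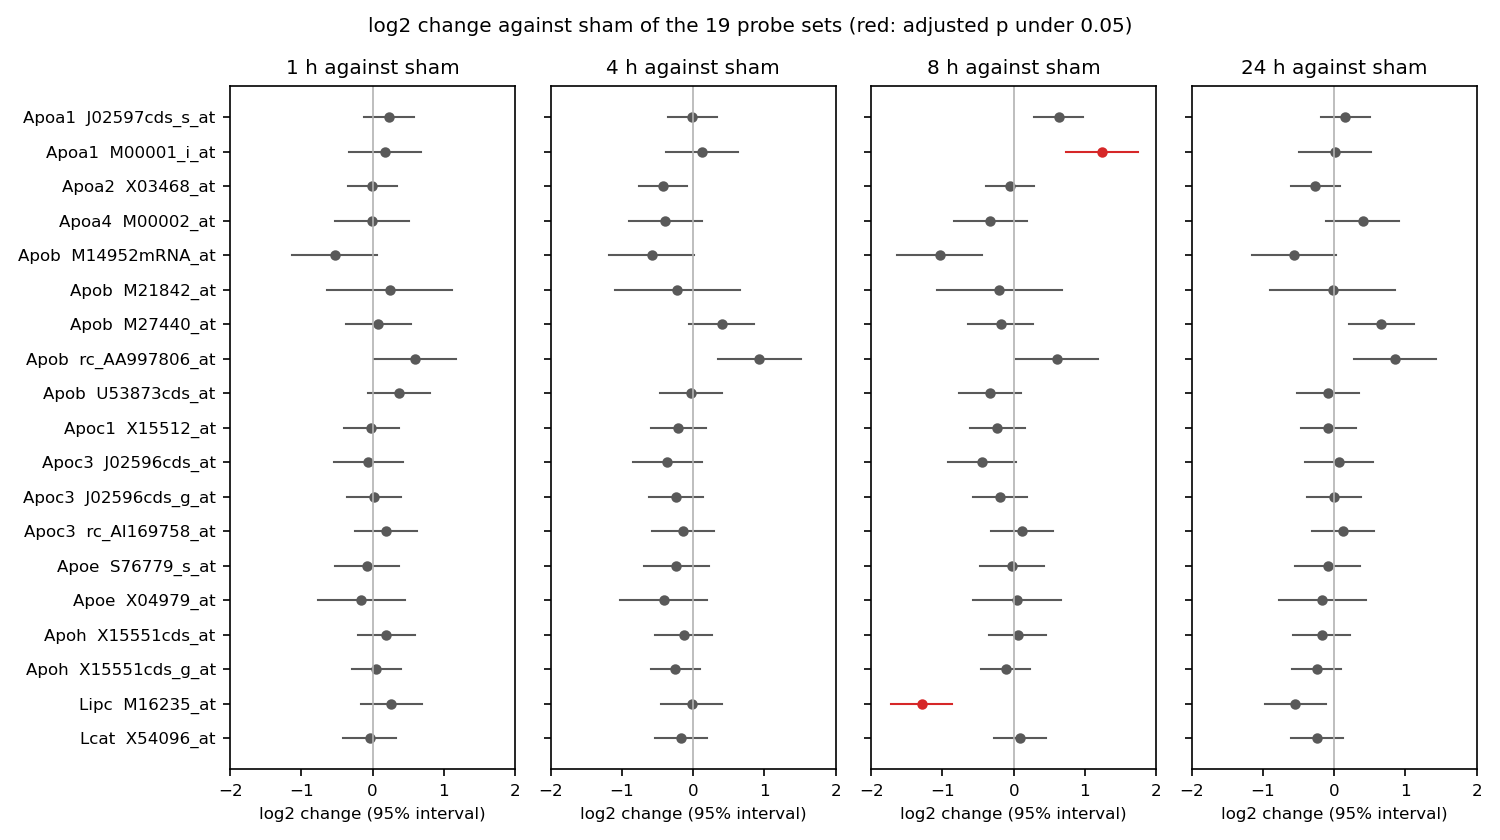
log2 change against sham of each of the 19 probe sets at the 4 burn times, from the limma model (points) with unadjusted 95% intervals (bars). Red marks an adjusted p under 0.05, reached at 8 h by Apoa1 M00001_i_at (1.24) and Lipc (-1.29) and by none at the other times.

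Genes that act with these proteins were taken from 6 lists of the lipoprotein pathway, each gene by its tested probe set of highest mean. Of 12 other apolipoprotein and HDL protein genes 4 were tested, and of 18 genes of particle assembly and lipid supply 10 were. For HDL remodelling the figure was 1 of 6 (the HDL receptor gene Scarb1), for lipases of the vessel wall and their regulators 2 of 7, and for receptors and uptake 4 of 12. In these 5 lists no gene was called by that probe set at any single burn time against sham, and the F test called Apoc4 and Ces1d. Between times, Ces1d was called lower from 4 h to 8 h, and Apoc4 and Lipa lower from 8 h to 24 h. Of 30 regulators of apolipoprotein genes 21 were tested. At 24 h against sham 6 of these 21 were called lower and none higher, where 10.3% of all probe sets were called in either direction, with a list median of -0.60 against -0.04 over all probe sets.

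Apoc4, a minor apolipoprotein gene beside Apoc1 and Apoe on chromosome 1, read 3662.4 and 3943.7 on the sham arrays, 2565.9 and 2615.2 at 1 h, 5083.4 and 4796 at 8 h, and 3148.1 and 3290.6 at 24 h. It fell by 0.62 from 8 h to 24 h (SE 0.14, adjusted p = 0.0323), a call that held without 4 of the 10 arrays in turn. Pon1, the HDL-bound paraoxonase, was lower at 24 h on U94856_g_at, with 5633.2 and 5835.5 against 8917.6 and 8568.6 on the sham arrays. That change was -0.61 (adjusted p = 0.0388), and the call was lost without any 1 of the 10 arrays. Its probe set of highest mean, rc_AA817964_s_at, changed by -0.32 (adjusted p = 0.352). Pcyt2, of phosphatidylethanolamine synthesis, was lower at 24 h on AF080568_at (-0.78, adjusted p = 0.0258), and on AF080568_g_at no comparison called it; the call held without 6 of the 10 arrays in turn. Cd36, a fatty acid receptor, read 335 and 306.6 at 8 h and 62.9 and 132.2 on the sham arrays of AB005743_g_at, a rise of 1.81 (adjusted p = 0.0342) that held without only 1 of the 10 arrays. Both of its 24 h arrays lay under the floor, so the fall from 8 h to 24 h was at least 8.81-fold (adjusted p = 0.00177). The same probe set was called higher from 1 h to 4 h (2.308, adjusted p = 0.009), kept in 13 of 17 alternatives. Its 1 h array 1, at 33.4, also lay under the floor. At 24 h against sham it was called lower (-1.325, adjusted p = 0.04485), kept in 2 of 17 alternatives. The other Cd36 probe set, AB005743_at, has the higher mean and was called in no comparison. It read 183.1 and 225.3 at 8 h, 177.6 and 111.1 on the sham arrays, and 98.9 and 79.1 at 24 h, a change of -1.20 from 8 h to 24 h (adjusted p = 0.0867). Ces1d, a liver carboxylesterase, read 186.7 and 133.6 at 8 h after 1184.9 and 444.2 at 4 h (-2.20, adjusted p = 0.0464), a call that held without only 1 of the 10 arrays. Lipa, the lysosomal acid lipase, fell by 0.71 from 8 h to 24 h on S81497_i_at (adjusted p = 0.023), a call that likewise held without 6 of them.

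Among the regulators, Hnf4a, the nuclear receptor best known for driving apolipoprotein genes in liver, was low at 8 h. D10554_s_at read 755.9 and 884.9 on the sham arrays, 822.3 and 881.2 at 4 h, 482.2 and 466.9 at 8 h, and 839.5 and 943.7 at 24 h. The 8 h arrays were the lowest of the 10 on this probe set and on the 2 others. From 4 h to 8 h Hnf4a fell by 0.84 on D10554_s_at (adjusted p = 0.0246), by 0.87 on X57133mRNA_at (0.0395) and by 1.05 on X57133mRNA_g_at (0.0427). The rise from 8 h to 24 h, 0.91, was called on D10554_s_at (adjusted p = 0.0144). The other probe sets gave 0.62 (adjusted p = 0.0862) and 0.84 (0.0688). At 8 h against sham the 3 changes were -0.79, -0.70 and -0.94, with adjusted p-values of 0.051, 0.11 and 0.0916, none called. From 4 h to 8 h the D10554_s_at call held without 6 of the 10 arrays in turn, and the calls of the 2 other probe sets were lost without any 1 array. Over the same groups Lipc had its lowest arrays at 8 h too. At 24 h Lipc lay below sham and Hnf4a overlapped sham. At 1 h Lipc had its highest arrays, while Hnf4a read 608 and 687.5 on D10554_s_at, both below sham. The 1 h arrays of X57133mRNA_g_at overlapped sham. Apoa1 had its highest arrays at 8 h on both of its probe sets. Hnf4a was singled out after its values were seen, and a link of Hnf4a to Lipc or Apoa1 was not tested.

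**Figure D4:**
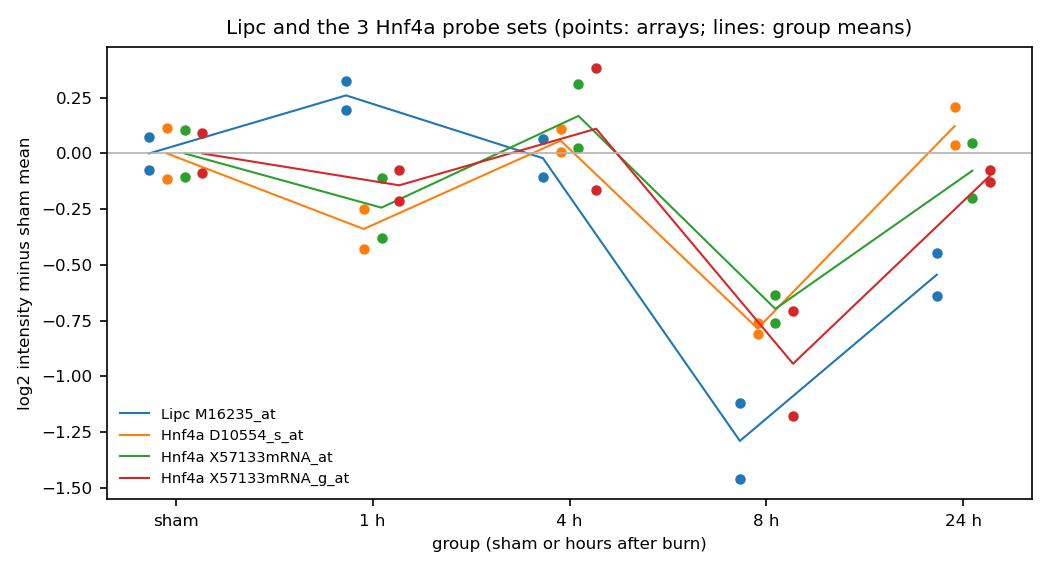
log2 intensity of Lipc and of the 3 Hnf4a probe sets on each array, each minus its own mean over the sham arrays, by group. Points are arrays (2 per group) and lines join group means. All 4 are lowest at 8 h, where Lipc is 1.29 below sham and Hnf4a 0.70 to 0.94 below it.

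Other regulators were called at several times, with 6 of 21 lower at 24 h. Cebpa, a transcription factor of liver genes, fell by 1.96 at 24 h against sham (adjusted p = 0.000772), from 739.2 and 849.4 to 213.5 and 193.8. Foxa2, a forkhead factor of liver, fell by 2.45 at 4 h (adjusted p = 0.000923), rose by 2.17 from 4 h to 8 h (adjusted p = 0.00146) and was 1.79 below sham at 24 h (adjusted p = 0.00295). Nr0b2, a repressor of nuclear receptors, was lower at 24 h on all 3 probe sets, by 1.91 on D86745cds_s_at (adjusted p = 0.00461). These 24 h calls of Nr0b2 and the calls of Cebpa and Foxa2 above held with each of the 10 arrays left out. At 1 h both arrays of Nr0b2 lay below both sham arrays on all 3 probe sets, and D86745exon_s_at was called, with a change of -2.59 (adjusted p = 0.0126), a call that held in 8 of the 10 fits that left out 1 array. From 1 h to 4 h the same probe set rose by 1.77 (adjusted p = 0.0266), a call that held in 3 of those 10. Nr1d1, a clock repressor known to act on Apoa1 and Apoc3, was below sham at all 4 burn times on M25804_g_at, by 1.06 at 1 h and 1.20 at 4 h, then by 1.97 at 8 h and 1.44 at 24 h. Its calls at 8 h and 24 h held with each of the 10 arrays left out, and that at 1 h (adjusted p = 0.035) was lost without any 1. The sources used here do not give the clock time of each sampling. Cebpb, an acute phase factor, rose by 1.02 at 4 h on X60769mRNA_at (adjusted p = 0.0191) and lay 0.70 below sham at 24 h (adjusted p = 0.0472). Nr1h3, a sterol receptor, rose by 0.84 from 4 h to 8 h (adjusted p = 0.0193) and fell by 0.66 from 8 h to 24 h (adjusted p = 0.0346). Nr5a2 fell by 1.28 at 24 h (adjusted p = 0.0325). The F test also called Nr1h4 (adjusted p = 0.0295) and Srebf1 (adjusted p = 0.0467), which no single comparison called. With each array left out in turn, the call of Cebpb at 4 h held in 6 of 10 fits and that at 24 h in none. For Nr1h3 the rise held in 6 and the fall in 2, for Nr5a2 the call held in 3, for Nr1h4 in 3 and for Srebf1 in none.

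For each gene called, the nearest courses over the 10 arrays were sought among 3142 other genes. Likeness was the root mean square difference of log2 values, each centred on its own mean. Nearest to Apoa1 J02597cds_s_at were Vtn at 0.07, Cyp3a2 at 0.10 and Ssr4 at 0.10 log2 units, where the spread of Apoa1 itself was 0.24. This Apoa1 probe set was taken for its higher mean, and its only call was lost after quantile normalization. The courses were compared without that step, so the part that the brightness of the 8 h arrays has in this likeness was not tested. Vtn, the plasma protein vitronectin, read 15400.5 and 16436.2 on the sham arrays and 24388.3 and 22851.5 at 8 h. Nearest to Lipc, with its own spread of 0.56, were Cd86 at 0.23, Pam at 0.24 and Cyp7b1 at 0.25. Both 8 h arrays of Cd86 and 1 of Cyp7b1 lay under the floor. Pam read 436.3 and 576.9 on the sham arrays and 311.3 and 252.1 at 8 h. Nearest to Apob M27440_at, with its own spread of 0.32, were Gstm1 at 0.12, Mrps31 and Rpl4, both at 0.14. Gstm1, a glutathione transferase, read 10979.2 and 12773.5 at 8 h and 21372.8 and 20888.6 at 24 h.

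Markers of other cell types were summed over their probe sets on each array. Exocrine pancreas markers, 11 genes on 13 probe sets, summed to 9505.5 to 10242.2 units on the sham arrays and 45024.4 to 46659.9 at 1 h. They summed to 2064.7 to 2259 at 4 h, 12977.4 to 13658.1 at 8 h and 2025.9 to 2438.6 at 24 h. Between 4 h and 8 h, and between 8 h and 24 h, 10 of the 11 pancreas genes were called (8.29% and 11.8% of all probe sets were). Apoa1 and Lipc were called in both steps and Apob in the second. Pancreas genes were also called where none of the 19 probe sets was. Against sham these were 10 at 1 h (1.44% of all), 8 at 4 h (4.35%) and 9 at 24 h (10.3%). Between 1 h and 4 h all 11 were called (5.0%). At 8 h against sham, where Apoa1 and Lipc were called, 3 pancreas genes were (3.50%). Enterocyte markers bear on Apoa1, Apoa4 and Apob, which the intestine also makes. No comparison called any of the 5 enterocyte genes tested. The 8 genes on 17 probe sets summed to 9438.9 to 10091.8 on the sham arrays, 9563.5 to 12131.2 at 8 h and 8394.4 to 9436.1 at 24 h, but 1 probe set of Fabp6, L22788_i_at, made up 64.9% to 73% of the sum. Without it the other 16 summed to 2735.7 to 3277.1, 2679.6 to 3584.7 and 2783.7 to 3309.6 in the same groups. The 3 probe sets of sucrase-isomaltase (Si), a defining enterocyte gene, were under the floor on all 10 arrays. Hepatocyte markers summed to 532019 to 615993.3 on the sham arrays, 464699 to 547266.9 at 4 h, 635955.8 to 655438.7 at 8 h and 534009.1 to 576444.2 at 24 h. The brightest probe sets of Alb and Serpina1 weigh most in that sum, and the genes did not move together. At 8 h against sham the changes of the 9 genes ran from -0.76 to 0.79, with 1 called higher and 1 lower. Cyp2e1 M20131cds_s_at read 46706.2 and 48495.2 on the sham arrays and 29149 and 27095.9 at 8 h. Kupffer cell and macrophage markers, 5 genes on 7 probe sets, summed to 5704.6 to 5846.8 on the sham arrays, 6359.9 to 6916.8 at 8 h and 3928.6 to 4115.6 at 24 h. Blood cell markers, 8 genes on 13 probe sets, summed to 51734.3 to 53854.9, 41311.2 to 48264.4 and 41790.7 to 45076.5 in the same groups. Most of that sum came from globin probe sets. On the sham arrays Hbb read 31253.4 and 32321.5 and Hbb-b1 read 17589 and 19033, so the sum says little of white blood cells. At 8 h against sham no Kupffer cell or blood cell gene was called. Summed stellate cell and fibroblast markers, 7 genes on 13 probe sets, were lowest at 8 h, where Lipc was lowest too. They summed to 4557.1 to 5128.8 on the sham arrays, 5059.1 to 5214.5 at 4 h, 3768.4 to 4058.4 at 8 h and 4266.2 to 4268.3 at 24 h, and no comparison called any of the 5 genes tested. By gene the low was not at 8 h: the median change of those 5 against sham was -0.22 at 8 h and -0.31 at 24 h. Endothelial cell markers, 5 genes on 6 probe sets, summed to 756.1 to 757.2 on the sham arrays and 450.1 to 801.4 at 8 h. The median change of the 4 tested against sham was 0.25 at 4 h, -0.33 at 8 h and 0.19 at 24 h, with no call. Cholangiocyte markers, 3 genes on 4 probe sets, summed to 503.4 to 621.9 on the sham arrays and 547 to 603.6 at 8 h, with no call. The part of these cell types in the results was not tested. Without the 1 h arrays, Lipc stayed called at 8 h against sham and Apoa1 M00001_i_at did not (adjusted p = 0.0637).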

How the data were processed

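The authors deposited 1 intensity value per probe set and array on a linear scale, scaled to a common level: the mean trimmed by 2% at each end was 500.9 to 501 on each of them, per the deposited files. For the software used, nothing is given in the sources used here. The values were used as deposited. A floor of 36.4, the middle of the 25th percentiles of the 10 arrays, was set before log2 was taken. Tests covered the 5285 of 8799 probe sets that exceeded the array median on 2 or more of the 10 arrays. Array medians ran from 100.1 to 131.1 intensity units, and the number of arrays limits the precision.

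Genes were named by the probe table of the array: 7018 probe sets had 1 symbol, 308 had several and 1473 were not listed. The 5 groups entered 1 model in limma 3.58.1 (R 4.3.3) with no covariate and 5 residual degrees of freedom. Each burn time was compared with sham and each time with the time before it by limma's moderated statistic (two-sided), beside an F test over the 4 burn times. P-values were adjusted by Benjamini-Hochberg over all 5285, and the code was tested on simulated data. Folds are ratios of geometric means. The genes named were all members, each pathway gene with a called probe set, and for each called gene the 3 nearest courses. The members and lists were chosen with earlier results of these data known.

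The alternatives tried were no filter, quantile normalization, other floors (the 10th and the 50th percentile), limma's intensity trend together with its robust variance, a block for the replicate number, a fit of just the groups compared and each array left out. A fit without the 1 h arrays was added after the data were seen. The replicate numbers were not taken to pair arrays.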

Additional observations from a re-analysis of the deposited data

Results flagged for a closer look

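The change between neighbouring times was itself tested and passed for 6 results. Between 4 h and 8 h, Apoa1 differed by 0.645 on J02597cds_s_at and by 1.112 on M00001_i_at (log2, 8 h minus 4 h), and Lipc by -1.269. Between 8 h and 24 h (24 h minus 8 h), Apoa1 differed by -1.231 on M00001_i_at, Apob by 0.8437 on M27440_at and Lipc by 0.7459. Groups of 2 arrays were too small to look for single arrays that stood apart.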

How the results depend on the processing

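Over 19 probe sets and 8 comparisons, 2476 values kept their direction and their side of the threshold under the alternatives, 66 lost a call, 36 gained one and none turned direction while called. Another 82 changed sign with no call on either side. The count of called members at 8 h against sham, 2, became 4 with the floor at the 50th percentile, 4 with the intensity trend, 0 with only the groups compared and 1 without the 1 h arrays. From 4 h to 8 h, 3 became 5 with the trend and 0 with only the groups compared. From 8 h to 24 h, 3 became 5 with the 50th percentile floor, 6 with the trend, 1 with only the groups compared and 1 without the 1 h arrays. The F test's 2 became 4 with that floor, 4 with no filter and 7 with the trend. Where none was called, no filter gave 1 at 4 h against sham and 1 for 4 h against 1 h, and the trend gave 2 and 1. At 24 h against sham that floor gave 2 and the trend 3. Leaving out 1 array gave 0 to 2 at 8 h, 0 to 2 from 4 h to 8 h, 0 to 2 from 8 h to 24 h, and 1 to 2 for the F test. With only the groups compared 2 residual degrees of freedom remained among 4 arrays; otherwise the cause was not tested.

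The replicate numbers were used as a block as well: deviations of same-numbered arrays correlated at 0.011 to 0.17, over 0.1 in 5 of 10 pairs of groups, so the numbers were taken as names. With the replicate block 1 member was called at 24 h against sham, and the calls of Apoa1 J02597cds_s_at from 4 h to 8 h (adjusted p = 0.0502) and Lipc from 8 h to 24 h (0.0519) were lost.

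Counts over all probe sets moved as well. With only the groups compared, 1 probe set was called at 1 h (76 otherwise), 110 at 4 h (230), 1 at 8 h (185), 197 at 24 h (543), 99 for 4 h against 1 h (264), 163 from 4 h to 8 h (438) and 324 from 8 h to 24 h (621). The trend gave 140, 380, 377, 830, 428 and 683 for all but the last of these, and 1261 by the F test (811). The 50th percentile floor gave 133 at 1 h, 374 at 4 h, 312 at 8 h and 401 for 4 h against 1 h, no filter gave 280 at 8 h, and the fit without the 1 h arrays gave 96 at 8 h. Leaving out 1 array brought the counts as low as 26 at 1 h, 117 at 4 h, 27 at 8 h, 224 at 24 h, 108 for 4 h against 1 h, 167 from 4 h to 8 h, 257 from 8 h to 24 h and 448 by the F test.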
